A study of Homo sapiens with 9 samples.

Results

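The Notch receptors and the proteins that cut, assist and remove them were examined at the RNA level in ALL-SIL cells after knockdown of *PHF6*. The set was chosen with earlier results of these data known. The rule that defines it names genes by their place in the pathway and uses no measured value. They were the receptors *NOTCH1*, *NOTCH2* and *NOTCH3*, the cleavage genes *ADAM10* and *NCSTN*, the transcription complex genes *RBPJ* and *MAML1*, and *FBXW7*, which acts in turnover. Every probe whose transcript identifier matched one of these 8 genes was taken, which gave 11 of the 57176 probes on the array. All 11 were well above background on all 9 arrays and were tested, as were 33586 probes in total, which represent 14680 of the 19722 genes with a symbol.

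ALL-SIL is an established cell line of T cell acute lymphoblastic leukemia (T-ALL). Either a control siRNA or one of 2 siRNA reagents against *PHF6* (labelled siRNA1 and siRNA2) was introduced by electroporation. From each group 3 biological replicates were each hybridized to a one-colour Agilent array. The time from electroporation to harvest is 96 h in most of the labels and 72 h in a free-text one. All values come from 1 cell line, the knockdown was transient, and the control cells were electroporated as well. The paper lists a Silencer Select siRNA and a SMARTpool as the reagents against *PHF6*. Which of these products is siRNA1 is not given in the sources used here. Values are normalized log2 intensities, and a difference of 1 is a change in intensity by a factor of 2. Since probes differ in how well they bind their transcript, the level of one probe was not set against that of another. In a bulk sample, fewer cells with a transcript and less transcript per cell cannot be told apart.

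Notch receptors are cell surface proteins that carry a signal by being cut. A furin-like convertase first processes the receptor on its way to the surface. When a Delta-like or Jagged ligand on a neighboring cell pulls on the receptor, the metalloprotease ADAM10 sheds its outer part, and the gamma-secretase complex, of which nicastrin (*NCSTN*) is a subunit, releases the intracellular domain. This domain enters the nucleus, binds the DNA-binding protein RBPJ and recruits the coactivator MAML1. FBXW7, the substrate receptor of a ubiquitin ligase, marks the intracellular domain for destruction. NOTCH1 drives commitment of thymic progenitors to the T cell lineage, and activating *NOTCH1* mutations and loss of *FBXW7* function are frequent in T-ALL. The array measured RNA, so that cleavage, the intracellular domain and protein turnover were not observed.

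Promoter sequence is shown for *NOTCH1*, the member whose probes were both lower in all siRNA arrays, and for *RBPJ*, which was the one member gene whose promoter held the core that its own protein reads. The sequences are from RefSeq promoter windows on GRCh38.p14. The first is the 250 bases before the *NOTCH1* start (chr9:136546049-136546298, minus strand), 76.0% of which are G or C. Capitals mark matches to the GC box core GGGCGG on either strand, of which there are 4 with 1 pair overlapping. The other sequences are 30-base stretches of the *RBPJ* promoter on the plus strand, where capitals mark the RBPJ core TGGGAA or its reverse complement TTCCCA. They lie at chr4:26319619-26319648 and chr4:26319662-26319691, with the matches beginning at positions -115 and -72 from the start.
NOTCH1 upstream: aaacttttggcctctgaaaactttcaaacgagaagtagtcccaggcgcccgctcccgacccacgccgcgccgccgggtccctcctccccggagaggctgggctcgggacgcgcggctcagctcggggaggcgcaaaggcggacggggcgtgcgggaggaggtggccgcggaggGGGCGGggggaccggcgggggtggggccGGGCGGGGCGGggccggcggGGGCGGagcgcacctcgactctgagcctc
RBPJ first site: ggtttaggaaatTTCCCAcggccgtgttgt
RBPJ second site: agtggaaggcggTGGGAAggaggtgtagcg
Matches were also counted over whole promoter windows and not only over the stretches shown. The TGGGAA core was present in 24.0% of 35116 such windows and in 1 of the 15 windows of the member genes. GGGCGG was present in 45.0% of all windows and in 11 of the 15, which belonged to every member gene except *NCSTN*. A match is a description of the letters in the window and does not show binding.

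The targeted gene was measured by 1 probe (A_23_P171385). Its values in replicates 1, 2 and 3 were 11.07, 11.17 and 10.86 with control siRNA, 9.39, 9.69 and 9.12 with siRNA1, and 9.20, 9.28 and 9.14 with siRNA2. *PHF6* fell, with all 6 siRNA arrays below all control arrays. For both siRNAs together the log2 fold change was -1.73 ± 0.14 (SE), with an adjusted p of 0.00247 (limma, Benjamini-Hochberg). The remaining intensity was 0.302 of control. The log2 fold change was -1.63 for siRNA1 and -1.83 for siRNA2, and the siRNAs did not differ at this probe by more than the array spread (difference -0.19, 95% confidence interval -0.56 to 0.17). The probe fell short of the threshold with VSN on the processed signal, where its log2 fold change was -1.85 and its adjusted p 0.0606 without a block for the replicate number, and 0.0104 with it.

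None of the 11 probes passed an adjusted p of 0.05 by limma in any comparison, whether the siRNAs were set against control together or singly, or against each other. For both siRNAs together the share of all tested probes that passed was 0.00893%, or 3 probes, and 2495 probes had an unadjusted p under 0.05. Of the members, 1 probe of *NOTCH1* had an unadjusted p under 0.05. Arrays that share a replicate number also shared deviations from the mean of their group. When this number was taken as a block, 2.74% of all tested probes passed, 623 of them higher and 296 lower. With this block again none of the 11 passed (adjusted p 0.0536 to 0.963). The same 1 had an unadjusted p under 0.05, where 7324 of all tested probes did. The share of all probes that passed was 0.00893% for siRNA1 and 0.0119% for siRNA2, and 0.947% and 1.65% with the block. Between the siRNAs it was 0%, with 844 probes at an unadjusted p under 0.05. With the block it was 0.0387%, with 3248 probes at an unadjusted p under 0.05. Of the members 0 had an unadjusted p under 0.05 in either fit. The siRNA arrays were on average lower at 4 and higher at 7 member probes. The median log2 fold change was 0.02 over the member probes and -0.00056 over all probes. The median absolute log2 fold change was 0.10 over the member probes and 0.12 over all tested probes. The array also carries many probes for long noncoding RNA, so values over all probes describe a mix of probe kinds. Over the 14680 tested genes, each by its brightest probe, the median log2 fold change was -0.04.

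**Figure D1:**
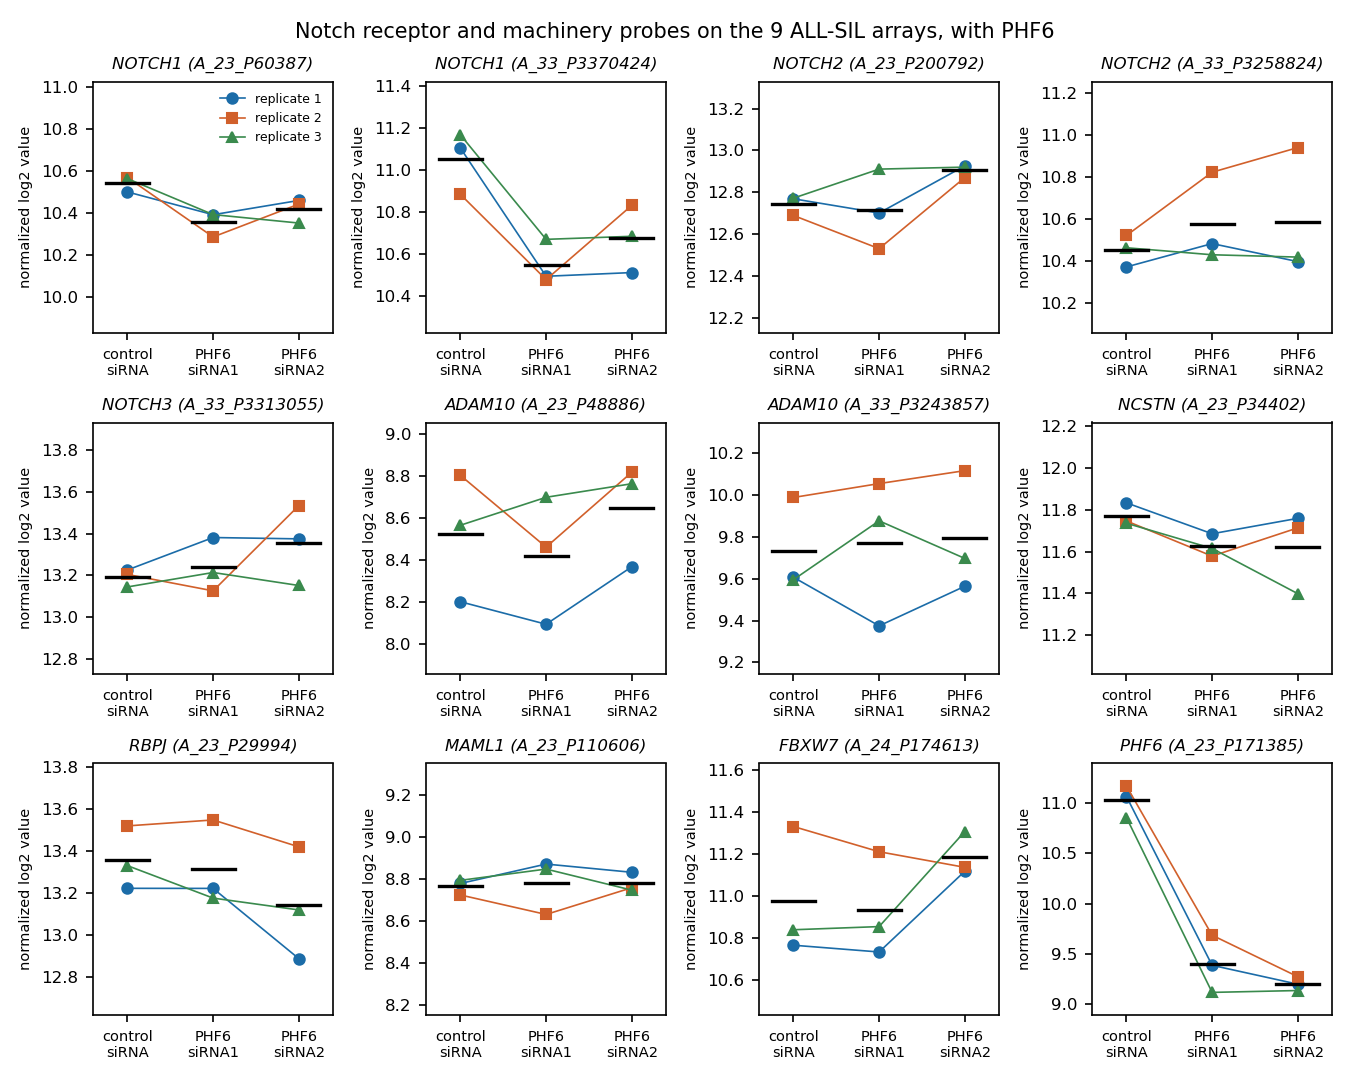
Normalized log2 value (vertical axis) of each member probe and of *PHF6* in the 3 groups (horizontal axis). Each point is 1 array, lines join arrays of the same replicate number and black bars are group means. The axes of the member probes all span the same range, while that of *PHF6* is wider, and in both *NOTCH1* panels all 6 siRNA arrays lie below all 3 control arrays.

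*NOTCH1* was the receptor gene whose values were lower in every siRNA array. At probe A_33_P3370424 the control values in replicates 1, 2 and 3 were 11.10, 10.88 and 11.17. They were 10.49, 10.48 and 10.67 with siRNA1 and 10.51, 10.83 and 10.68 with siRNA2. All 6 siRNA arrays were below the lowest control array, although replicate 2 of siRNA2 came close to it. Control arrays had a mean of 11.05 ± 0.15 (SD, n = 3), siRNA1 arrays one of 10.55 ± 0.11 (SD, n = 3) and siRNA2 arrays one of 10.68 ± 0.16 (SD, n = 3). The log2 fold change for both siRNAs was -0.44 ± 0.12 (SE, 95% confidence interval -0.71 to -0.17), or 0.737 of the control intensity. Its adjusted p was 0.618, and 0.0536 with the replicate block (95% confidence interval -0.67 to -0.21), so that it missed the threshold in both fits. Read one replicate number at a time, the difference from the control array was -0.61, -0.41 and -0.50 for siRNA1. It was -0.59, -0.05 and -0.48 for siRNA2, so that replicate 2 gave the smallest difference under each siRNA.

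The siRNAs gave a log2 fold change of -0.51 (siRNA1) and -0.38 (siRNA2) at this *NOTCH1* probe, with adjusted p of 0.749 and 0.823, and of 0.0776 and 0.130 with the block. The difference between them was 0.13, with a 95% confidence interval of -0.19 to 0.44. Replicates 1 and 2 of every group were hybridized on one slide and replicate 3 on another. Within the first slide the log2 fold change was -0.42, within the second the differences were those of replicate 3 above, and with the slide as a block the adjusted p was 0.133. Over the alternatives in normalization, filter, block and arrays, the log2 fold change of this probe ranged from -0.55 to -0.36 and its adjusted p from 0.0521 to 0.998. Leaving out replicate 2 gave -0.55 with the block, and leaving out replicate 1 gave -0.36.

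A second *NOTCH1* probe (A_23_P60387) was spotted 5 times on each array. Its values were 10.50, 10.57 and 10.56 with control siRNA, 10.39, 10.29 and 10.39 with siRNA1, and 10.46, 10.44 and 10.35 with siRNA2. Here too all 6 siRNA arrays were below all 3 control arrays, but the difference was smaller. Together the siRNAs gave a log2 fold change of -0.16 ± 0.10 (SE), with a 95% confidence interval of -0.38 to 0.07 and an adjusted p of 0.770, or 0.303 with the block. The 5 spots of one array had a coefficient of variation between 13.8% and 18.0%, with a median of 15.5%. The direction was the same in all 28 alternatives, with values from -0.22 to -0.11. These were the only 2 of the 11 member probes whose siRNA arrays all lay below the control arrays, and 2.05% of all tested probes had this order. The 2 probes match the same transcript and correlated over the 9 arrays (r = 0.77), so they are not independent members. No member probe had all siRNA arrays above the control arrays, as 1.83% of all probes had.

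**Figure D2:**
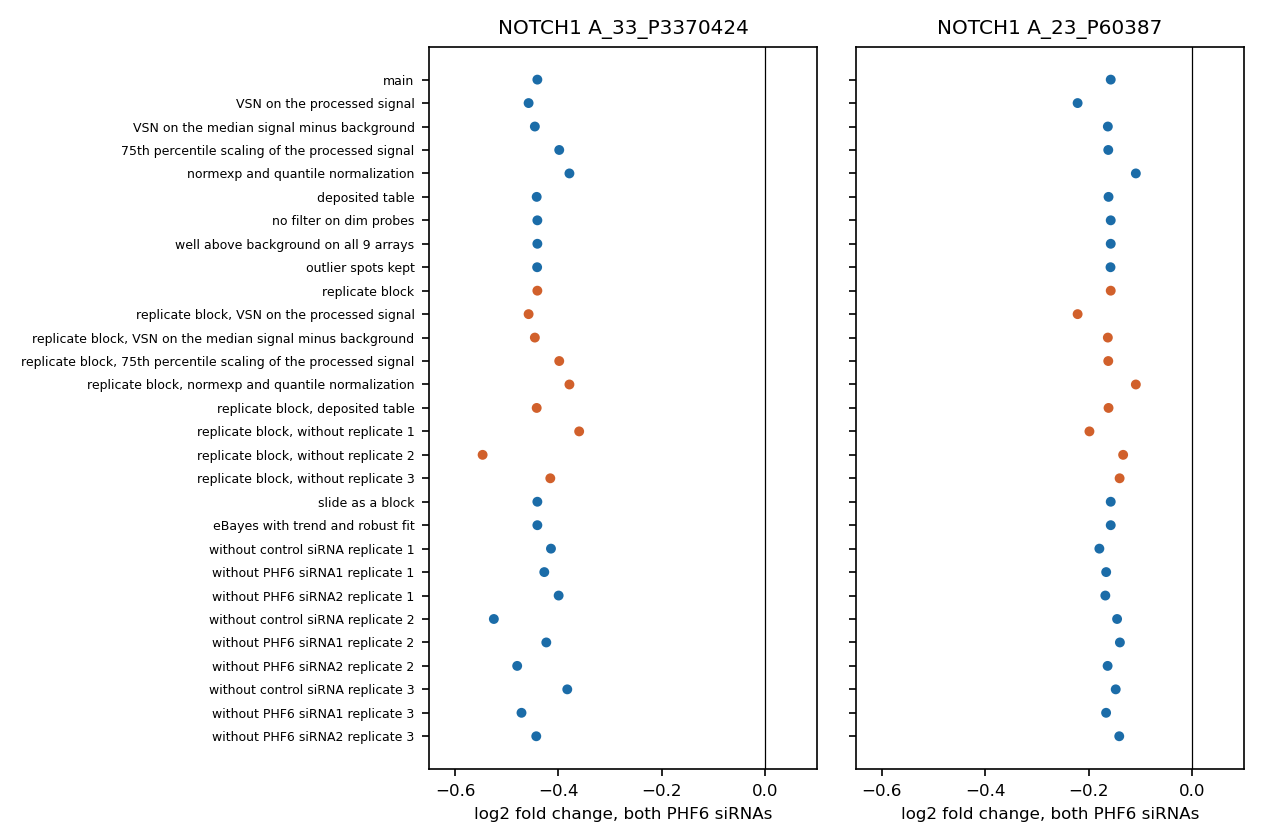
Log2 fold change of both *PHF6* siRNAs over control siRNA (horizontal axis) for both *NOTCH1* probes under the main setting and each of 28 alternatives (vertical axis). Orange points are fits with the replicate number as a block and blue points those without, and the points stay left of 0, from -0.55 to -0.36 for A_33_P3370424 and from -0.22 to -0.11 for A_23_P60387.

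The other receptors did not show this order. *NOTCH2* had a probe (A_23_P200792) at 12.77, 12.69 and 12.77 with control siRNA, 12.70, 12.53 and 12.91 with siRNA1, and 12.93, 12.87 and 12.92 with siRNA2. The siRNA2 arrays were all above the control arrays while those of siRNA1 lay on both sides. The log2 fold change was -0.03 for siRNA1 and 0.16 for siRNA2, and the difference between the siRNAs was 0.19 (95% confidence interval -0.10 to 0.49, adjusted p 0.9998). For both siRNAs it was 0.07 (95% confidence interval -0.19 to 0.32), with an adjusted p of 0.930.

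A second *NOTCH2* probe (A_33_P3258824), which was designed on another transcript of the gene, had 10.37, 10.52 and 10.46 with control siRNA. It had 10.48, 10.82 and 10.43 with siRNA1 and 10.40, 10.94 and 10.42 with siRNA2. Replicate 2 was the highest array of each group, and replicate 2 of both siRNAs stood above all other arrays. Both siRNAs together gave a log2 fold change of 0.13 (95% confidence interval -0.21 to 0.47), with an adjusted p of 0.888. The *NOTCH2* probes differed in which samples were high, since the first separated siRNA2 and the second replicate 2, and their correlation over the 9 arrays was r = -0.36.

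*NOTCH3*, a receptor that is also a known target of Notch signaling in T-ALL, had 1 probe (A_33_P3313055). Its values were 13.23, 13.20 and 13.15 with control siRNA, 13.38, 13.13 and 13.21 with siRNA1, and 13.37, 13.53 and 13.15 with siRNA2. It was above the control array of the same number in 5 of 6 siRNA arrays, and the groups overlapped. Its log2 fold change was 0.10 (95% confidence interval -0.16 to 0.37) with an adjusted p of 0.885, and with VSN on the processed signal it was -0.0049.

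*ADAM10*, the protease of the first ligand-dependent cut, had 2 probes. Probe A_33_P3243857 had 9.61, 9.99 and 9.59 with control siRNA, 9.37, 10.05 and 9.88 with siRNA1, and 9.56, 10.12 and 9.70 with siRNA2. Probe A_23_P48886 had 8.20, 8.80 and 8.57 with control siRNA, 8.09, 8.46 and 8.70 with siRNA1, and 8.37, 8.82 and 8.76 with siRNA2. Arrays of replicate 1 were the lowest at the second probe and those of replicate 2 the highest at the first, whatever the siRNA, and the replicate number took up 84.8% (first probe) and 75.5% (second probe) of the sum of squares over the arrays. The median over 33509 probes was 50.1% for the replicate number and 19.9% for the group. The log2 fold changes for both siRNAs were 0.05 (95% confidence interval -0.36 to 0.46) and 0.01 (95% confidence interval -0.39 to 0.41), with adjusted p of 0.968 and 0.994. With the replicate block the interval of the first probe narrowed to -0.17 to 0.27. Both changed sign between alternatives, with -0.05 and -0.03 under VSN on the processed signal.

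*NCSTN*, the gamma-secretase subunit that receives the shed receptor, was lower than the control array of the same number in 6 of 6 siRNA arrays (A_23_P34402). Its values were 11.83, 11.75 and 11.74 with control siRNA, 11.68, 11.58 and 11.61 with siRNA1, and 11.76, 11.71 and 11.40 with siRNA2. The groups overlapped, since replicate 1 of siRNA2 was above 2 of the control arrays. The log2 fold change was -0.15 (95% confidence interval -0.41 to 0.11), with an adjusted p of 0.822, or 0.377 with the block, and it was -0.15 under each siRNA. Together with both *NOTCH1* probes this made 3 of 11 member probes that were lower than their own control array in all 6 comparisons. These came from 2 genes, and 10.8% of all tested probes had this order. None was higher in all 6, where 10.7% of all probes were.

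In the transcription complex, *RBPJ* (A_23_P29994) had 13.22, 13.52 and 13.33 with control siRNA, 13.22, 13.55 and 13.18 with siRNA1, and 12.89, 13.42 and 13.12 with siRNA2. Replicate 2 was the highest array in each group, and the replicate number took up 69.1% of the sum of squares. All 3 siRNA2 arrays were below the control array of their number, by -0.34, -0.10 and -0.21, while siRNA1 differed from it by -0.00036, 0.03 and -0.15. On the log2 scale the fold change was -0.13 for both siRNAs (95% confidence interval -0.46 to 0.20, adjusted p 0.885), and -0.22 for siRNA2 (adjusted p 0.908, or 0.276 with the block). The difference between the siRNAs was -0.17 (95% confidence interval -0.56 to 0.21).

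*MAML1*, the coactivator of the complex, was spotted 5 times (A_23_P110606), with a coefficient of variation between spots of 8.76% to 16.4%. It had 8.78, 8.72 and 8.79 with control siRNA, 8.87, 8.63 and 8.85 with siRNA1, and 8.83, 8.76 and 8.75 with siRNA2. The 3 groups overlapped, and the group took up 1.23% of the sum of squares. For both siRNAs it had a log2 fold change of 0.02, with a 95% confidence interval of -0.22 to 0.25 and an adjusted p of 0.986, and it was -0.06 under VSN on the processed signal.

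*FBXW7* (A_24_P174613) had 10.76, 11.33 and 10.84 with control siRNA, 10.73, 11.21 and 10.85 with siRNA1, and 11.12, 11.14 and 11.31 with siRNA2. The siRNA1 arrays followed the control arrays of their number closely, while siRNA2 was higher than control in replicates 1 and 3 and lower in replicate 2. Its log2 fold change was 0.08 for both siRNAs (95% confidence interval -0.27 to 0.43, adjusted p 0.937), -0.05 for siRNA1 and 0.21 for siRNA2. The difference of 0.25 between the siRNAs had a 95% confidence interval of -0.15 to 0.66 and an adjusted p of 0.9998.

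**Figure D3:**
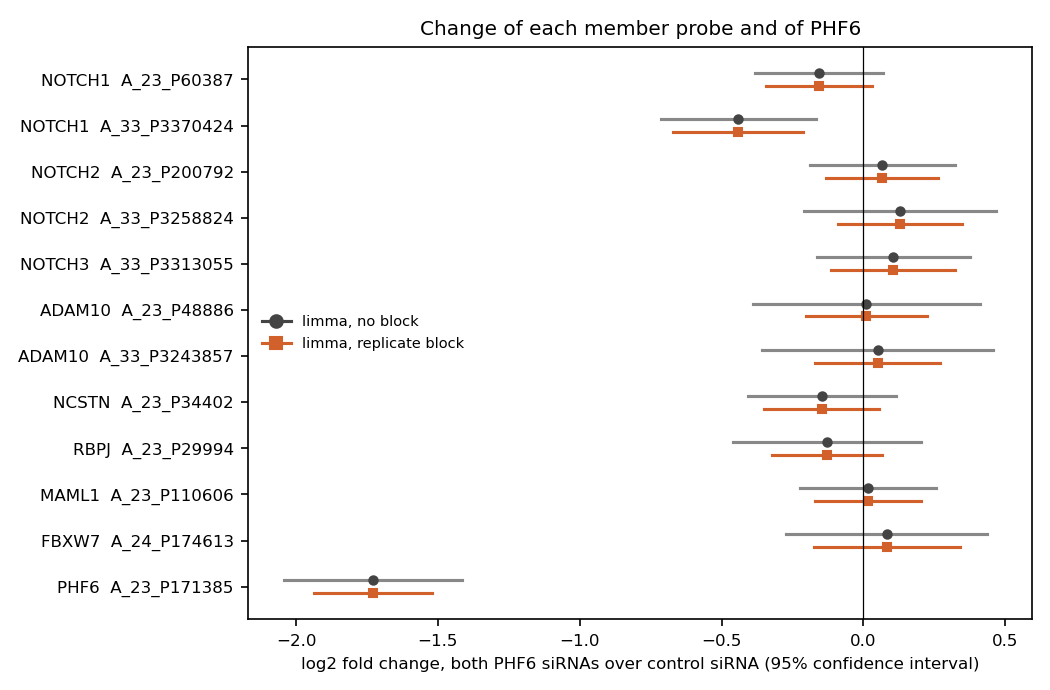
Log2 fold change of both *PHF6* siRNAs over control siRNA (horizontal axis) for each member probe and *PHF6* (vertical axis). Points are limma estimates, bars their 95% confidence intervals over 9 arrays, with black circles for the fit without a block and orange squares for the fit with the replicate block. The interval lies wholly below 0 for A_33_P3370424 of *NOTCH1* and for *PHF6*, and covers 0 for the other 10 probes.

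The arrays split the members by how their values varied. For both *NOTCH1* probes the group took up most of the sum of squares over the arrays, 77.7% at A_33_P3370424 and 76.3% at A_23_P60387, and the replicate number 5.95% and 0.784%. For *ADAM10*, *RBPJ*, *MAML1* and the *NOTCH2* probe A_33_P3258824 it was the replicate number that took up most, 57.6% for *MAML1* and 68.9% at the *NOTCH2* probe. As a description, the genes whose brightest probe followed A_33_P3370424 most closely over the 9 arrays, among 13229 genes, were *CLN6* (Pearson r = 0.98), *APBB2* (0.96), *CTSA* (0.96), *DERL3* (0.95) and *CT47A11* (0.95). All points share the same 9 arrays.

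The rest of the pathway was described with a list of 63 further genes, of which 62 had a probe with a symbol and 55 were tested through their brightest probe. None of the 55 passed the threshold without a block, where 0.00681% of all genes did, and the lowest adjusted p among them was 0.646. With the replicate block 1 passed, where 2.37% of all genes did. Of the 55 genes 25 were higher and 30 lower, with a median log2 fold change of -0.02 beside -0.04 for all genes.

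The gene that passed with the block was *MFNG*, a fringe glycosyltransferase that adds sugars to the receptor and so alters which ligands it answers to. Its values (A_23_P103104) were 12.06, 11.53 and 11.86 with control siRNA, 11.75, 11.15 and 11.62 with siRNA1, and 11.48, 11.06 and 11.54 with siRNA2. It was lower than its own control array in 6 of 6 siRNA arrays, although the groups overlapped because replicate 2 was low throughout. The log2 fold change was -0.39 (adjusted p 0.686, and 0.0447 with the block). Leaving out a replicate number raised the blocked p to between 0.0957 and 0.311, with log2 fold changes of -0.44 to -0.36. Those fits had fewer arrays, and 5 to 672 of all tested probes passed in them. Over the normalizations the blocked p was 0.0309 to 0.0814. The call was thus made only with all 3 replicates, and it depended on the normalization. *LFNG*, another fringe gene that was singled out after its values were seen, had a log2 fold change of -0.33 and an adjusted p of 0.646, or 0.0686 with the block, and was lower in 6 of 6 siRNA arrays. The other 3 glycosylation genes had log2 fold changes between 0.07 and 0.21.

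Of the 5 ligand genes only *DLL1* was tested, and *DLL4*, *JAG1* and *JAG2* were well above background on 0 arrays and *DLL3* on 1. *DLL1* was dim, well above background on 8 arrays, with a log2 fold change of 0.35 and an adjusted p of 0.847, or 0.119 with the block. Among the other cleavage enzymes 2 were higher and 3 lower, of which *PSENEN*, another gamma-secretase subunit, was lower in 6 of 6 siRNA arrays (log2 fold change -0.17, adjusted p 0.770, chosen after its values were seen). Log2 fold changes were -0.29 to 0.03 for the 4 genes of ligand endocytosis, -0.05 to 0.16 for the 6 coactivators tested, -0.34 to 0.26 for the 13 corepressors and -0.18 to 0.14 for the 9 genes of turnover of the intracellular domain. *NOTCH4* and the convertase gene *FURIN* had -0.29 and -0.12. None of these groups had a gene past the threshold, with or without the block.

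The largest log2 fold changes above 0 among genes well above background on all 9 arrays were those of *CBL* (0.28), a ubiquitin ligase, *CTBP2* (0.26), a corepressor, and *AAK1* (0.25), a kinase of endocytosis, of which *AAK1* was higher in 6 of 6 siRNA arrays. The largest below 0 were those of *NUMBL*, *MFNG* and *FHL1*. *NUMBL*, a relative of the Notch inhibitor NUMB, had -1.06 with an adjusted p of 0.672. Its control values were 9.31, 11.14 and 8.49, and without the control array of replicate 2 the value was -0.31. *FHL1* encodes a LIM protein of which a form binds RBPJ, and had -0.34 with an adjusted p of 0.662, or 0.145 with the block. Its value was -0.22 without the control array of replicate 1, and -0.15 with the block and without replicate 1.

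**Figure D4:**
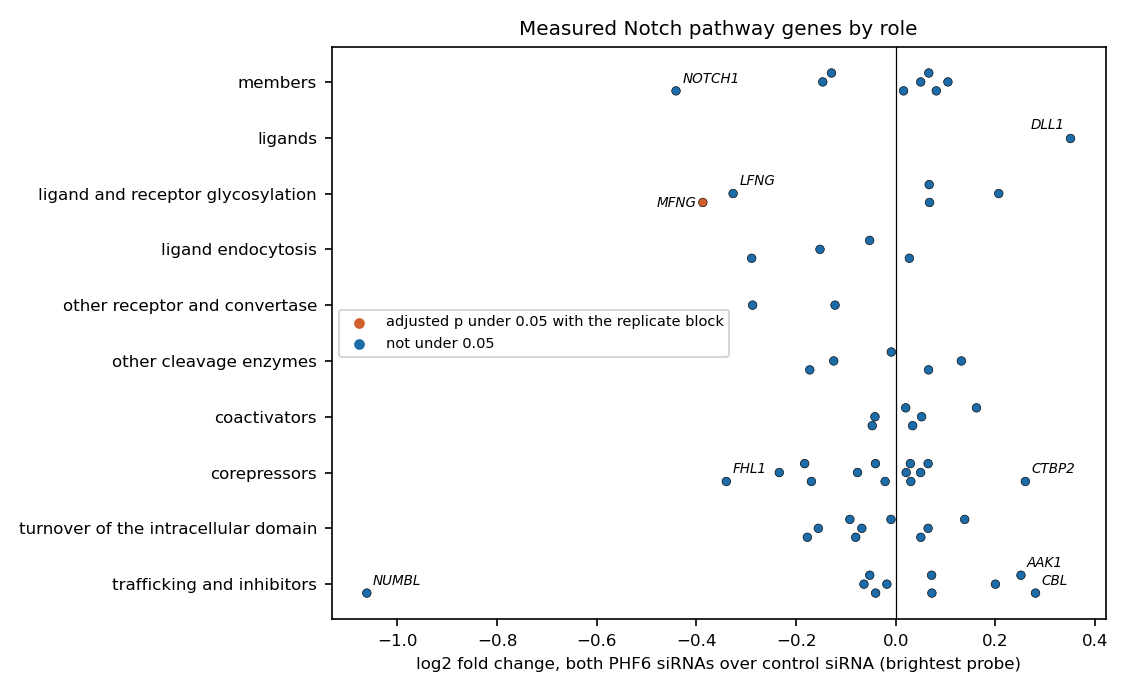
Log2 fold change of both *PHF6* siRNAs over control siRNA (horizontal axis) for the brightest probe of each of the 8 member genes and the 55 other tested pathway genes, by role (vertical axis). Each point is 1 gene, vertical offsets only separate points, and orange marks the single gene (*MFNG*) with an adjusted p under 0.05 with the replicate block.

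Of 15 target genes of Notch signaling on the list, 11 were tested and none passed without a block. With the block *PTCRA*, the pre-T cell receptor alpha chain, fell (log2 fold change -0.73, adjusted p 0.00837, 0.645 without the block). *IL7R*, the interleukin 7 receptor, rose (1.27, adjusted p 0.00649, 0.645 without the block). Both calls were lost with the block when replicate 2 was left out (adjusted p 0.101 for each). The log2 fold changes were then -0.66 for *PTCRA* and 1.33 for *IL7R*, and 5 of all tested probes passed. The call of *PTCRA* was also lost without replicate 1 (0.0579, log2 fold change -0.78), where 45 of all tested probes passed. That of *IL7R* was lost with the block under VSN on the processed signal (0.0606). Of the 11 tested, 6 had a log2 fold change above 0 and 5 below it. A further 3, of which none passed, are named here after their values were seen. *DTX1* had a log2 fold change of -0.48 and an adjusted p of 0.779, or 0.0792 with the block, and was lower in 6 of 6 siRNA arrays. *HEY1*, well above background on 7 arrays, had 0.93 and an adjusted p of 0.780, or 0.104 with the block, and was higher in 5 of 6. *HES5* was dim, with a control mean of 5.26. It had 0.35 and an adjusted p of 0.654, or 0.154 with the block, and was higher in 5 of 6. Its log2 fold change was 0.56 for siRNA1 and 0.14 for siRNA2.

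The labelled cell type was set against its markers. Of 11 genes listed as T-lineage markers 10 had a probe with a symbol. These were well above background on all 9 arrays, among them *CD3D*, *CD5* and *CD7*. The list also holds *TLX1*, which is an oncogene of T-ALL and not a marker of normal T cells. Of the 10 genes 8 were lower and 2 higher with the siRNAs, where 8653 of all 14680 tested genes were lower. The 2 higher were *CD1A* and *CD2*. *CD1A* had a log2 fold change of 0.71 (adjusted p 0.793, 0.0730 with the block) and was higher in 5 of 6 siRNA arrays. *CD2* had 0.14 (adjusted p 0.933, 0.589 with the block). *CD7*, chosen after its values were seen, passed with the block (log2 fold change -0.76, adjusted p 0.0124, 0.586 without). It did not pass with the block without replicate 1 (0.0579, log2 fold change -0.86) or replicate 2 (0.106, log2 fold change -0.79). In those fits 45 and 5 of all tested probes passed. The log2 of the summed T-lineage level was 17.42 to 17.61 with control, 17.30 to 17.48 with siRNA1 and 17.29 to 17.39 with siRNA2. Of 7 B-lineage markers 4 were tested, while *CD22* and *BLNK* were well above background on 0 arrays and *PAX5* on 2. Their summed level was 12.52 to 12.96 with control, 12.34 to 12.65 with siRNA1 and 12.24 to 12.48 with siRNA2, and *CD79B*, also chosen after its values were seen, passed with the block (-0.48, adjusted p 0.0416, 0.725 without). That call was lost when any replicate number was left out (adjusted p 0.0731 to 0.205, log2 fold change -0.54 to -0.36). It was also lost under VSN on the processed signal (0.0995) and with scaling to the 75th percentile (0.0932). Without the control array of replicate 1 the log2 fold change of *CD79B* was -0.28. Among myeloid markers 5 of 7 were tested, with summed levels of 7.995 to 8.16, 8.01 to 8.07 and 7.97 to 8.08 in the same order. Of the erythroid markers 3 of 5 were tested (10.64 to 11.03, 10.52 to 10.99 and 10.49 to 10.79), and of the stromal markers 1 of 5 (8.92 to 9.74, 8.72 to 9.47 and 8.67 to 9.78), while the myeloid marker *CD33*, the erythroid marker *HBB* and the stromal markers *COL1A2*, *COL3A1* and *DCN* were well above background on 0 arrays. All these sums are of unlogged intensities, so the brightest gene weighs most, and no sum was tested. For the T lineage this was *CD3D* (control mean 16.70, log2 fold change -0.10, adjusted p 0.885, 0.545 with the block). For the B lineage it was *CD79A* (control mean 12.55, log2 fold change -0.33, adjusted p 0.654, 0.133 with the block). In both lists the control range overlapped that of siRNA1 and lay above that of siRNA2. Whether differences in T- and B-lineage levels have a part in the *NOTCH1* values was not tested. Per array, 29662 to 33736 probes were well above background, and precision is limited by there being 3 arrays per group.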

How the data were processed

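RNA of 9 ALL-SIL samples was analysed, 3 each with control siRNA, *PHF6* siRNA1 and *PHF6* siRNA2. Groups and replicate numbers come from the sample titles. The authors deposited the fluorescence intensity of each spot, read with Agilent Feature Extraction (version 10.5.1.1 in the file headers, 9.1 in the submitters' processing notes), and flags of 0 or 1 for spots well above background, outliers and saturation (a score without unit in the deposited files). They also deposited a table of log2 values normalized with VSN, which was used as an alternative.

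Here the VSN model was fitted to the median intensity without background subtraction, with 7 iterations at a quantile of 0.9, by code written for this purpose. Outlier spots were left out, and 61537 spots were averaged to 57176 probes. A probe was tested if at least 3 arrays had it well above background. Symbols were assigned to 25729 probes by matching transcript identifiers to a RefSeq table (GRCh38.p14), used for names and promoter windows only because the array annotation is of another build. Other genes than the members were represented by their brightest probe.

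Groups were compared with limma 3.58.1 and statmod 1.5.0 in R 4.3.3. All 9 arrays shared one spread, no block was used, and p was adjusted by Benjamini-Hochberg over all tested probes with a threshold of 0.05. Standard errors and confidence intervals are from this fit unless the block is named. The fits were tested on simulated data. A check of whether replicate numbers pair the samples correlated the arrays' deviations from their group means. Same-numbered arrays had r of 0.31 to 0.75 (9 pairs, median 0.60) and differently numbered ones -0.57 to 0.13 (18 pairs). Deviations of a group's arrays cancel out, so positive r of same-numbered arrays makes the other r negative on average. The negative values are thus no separate evidence of pairing. Because same-numbered arrays were alike, blocked values are printed beside results they change. The labels call the replicates biological and independent.

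The members, gene lists and tests were chosen with earlier results of these data known. Named genes were the members and *PHF6*, listed pathway and target genes with an adjusted p under 0.05 with or without the block, the 3 largest rises and falls of the pathway list, and the 5 genes most like *NOTCH1*. Others were chosen after their values were seen, as the text says. The alternatives were VSN on the processed signal or on the median intensity minus background, scaling to the 75th percentile, normexp (offset 50) with quantile normalization, the deposited table, other filters, outliers kept, the replicate or slide as a block, an intensity trend with robust fit, only the compared arrays, the mean of a gene's probes, and leaving out arrays.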

Additional observations from a re-analysis of the deposited data

How the results depend on the processing

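In all alternatives run, 0 of the 11 member probes (or 8 genes, by the mean of their probes) passed the threshold in each of the 4 comparisons. Both *NOTCH1* probes, both *NOTCH2* probes, *NCSTN*, *RBPJ* and *PHF6* kept their direction in all 28 alternatives, with log2 fold changes of -0.20 to -0.047 (without control replicate 2) for *RBPJ*, -0.24 to -0.080 for *NCSTN* (-0.090 without siRNA2 replicate 3), and 0.011 to 0.14 (A_23_P200792) and 0.015 to 0.21 (A_33_P3258824) for *NOTCH2*. Under VSN on the processed signal, with or without the replicate block, the log2 fold change was -0.057 for *MAML1*, -0.0049 for *NOTCH3*, and -0.049 (A_33_P3243857) and -0.031 (A_23_P48886) for *ADAM10*, and the median of all probes moved to -0.07. *PHF6*, at -1.85 there, missed the threshold without the block (adjusted p 0.0606) and passed with it (0.0104). Leaving out single arrays gave -0.0062 to 0.054 for *MAML1*, -0.031 to 0.18 (A_33_P3243857) and -0.15 to 0.15 (A_23_P48886) for *ADAM10*, and -0.025 (without control replicate 1) to 0.26 for *FBXW7*. With the block, *MAML1* was at -0.013 without replicate 1, and *ADAM10* at -0.020 (A_33_P3243857) and -0.067 (A_23_P48886) without replicate 3. The causes were not tested.

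The number of all probes past the threshold, 3 in the fit as reported, was 1 with VSN on the processed signal, 5 with scaling to the 75th percentile, 5 with normexp and 24 with the slide as a block. With the replicate block it was 919, and 152 (78 lower, 74 higher) with VSN on the processed signal, 735 on the median minus background, 272 with the 75th percentile, 1286 with normexp and 868 with the deposited table. When a replicate number was left out, it was 45 (replicate 1), 5 (replicate 2) or 672 (replicate 3). In the list of other pathway genes the count was 0 without the block, 1 with it, 3 with it and normexp, and 1 with it and the deposited table. The small number of arrays limits all these fits.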
